A study of Mus musculus with 4 samples.

Results

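Transcripts of 8 genes that mark the naive state of mouse embryonic stem (ES) cells were followed from culture with leukemia inhibitory factor (LIF) to culture without it. The genes were Nanog, Zfp42 (also called Rex1), Dppa3, Fbxo15, Tcl1, Sox15, Manba and Zfp57. They were taken by name, and every probe set was used whose platform annotation gives 1 gene symbol that is one of these names. Each of the 8 genes had exactly 1 such probe set, so the value of the gene and of its brightest probe set are the same, and all 8 were among the 14445 genes tested. The cells were CGR8, an established line of mouse ES cells, grown on gelatin in medium with serum replacement. Total RNA was measured on 4 Affymetrix arrays. On 2 arrays the cells had LIF at 1000 U/ml, and on the other 2 the medium held no LIF. The medium was changed on the day after passage and culture lasted 2 days, per the labels. The arrays of each group carry the numbers 1 and 2, and nothing in the labels says whether they came from separate cultures, so a p-value here reflects the spread of these particular arrays, and that spread may be technical.

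In the mouse, the naive state is the ground state of the early epiblast that ES cells keep in culture, and LIF sustains it through the kinase JAK and the transcription factor STAT3. Nanog is a homeodomain factor of the pluripotency network, and its level is known to vary from cell to cell. Zfp42 is a zinc finger protein used as a marker that is lost early when cells leave the naive state. The remaining genes have other roles: Sox15 is an SRY-type factor, Tcl1 a coactivator of the kinase AKT, Fbxo15 an F-box protein, Manba the lysosomal beta-mannosidase, and Zfp57 and Dppa3 protect DNA methylation at imprinted loci and in the early embryo. These RNAs came from whole cultures, in which fewer cells with a transcript and less of it per cell cannot be told apart.

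The sequences before the starts of Nanog and Zfp42 are shown because the transcripts of both genes were lower without LIF by nearly the same amount, and because transcription factors of the network are known to act there. They are the 250 bases before the outermost start in RefSeq, build GRCm38.p6, at chr6:122707239-122707488 on the plus strand for Nanog and chr8:43307010-43307259 on the minus strand for Zfp42, written 5′ to 3′ in the direction of the gene. Capitals mark matches to any of the motifs searched.
Nanog: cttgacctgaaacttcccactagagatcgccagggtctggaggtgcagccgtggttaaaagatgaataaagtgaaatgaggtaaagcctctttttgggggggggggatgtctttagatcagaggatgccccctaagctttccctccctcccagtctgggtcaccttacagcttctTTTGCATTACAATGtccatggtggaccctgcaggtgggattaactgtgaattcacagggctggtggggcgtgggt
Zfp42: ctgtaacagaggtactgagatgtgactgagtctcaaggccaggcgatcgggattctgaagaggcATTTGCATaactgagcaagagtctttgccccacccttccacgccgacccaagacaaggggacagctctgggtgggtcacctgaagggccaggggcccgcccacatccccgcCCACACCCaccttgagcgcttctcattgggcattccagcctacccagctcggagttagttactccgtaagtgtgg
The motifs were TTCNNNGAA for STAT factors, ATGCAAAT (the octamer), ACAATG and ACAAAG for SOX factors, AAGGTCA for Esrrb, CCACACCC for KLF factors and TGCCGC for Zfp57, searched on both strands. The core TTTGCAT, which overlaps the octamer, and a joined motif, in which any 1 base and then ACAATG follow that core, were added after the sequences had been read. In Nanog it lay 69 to 75 bases before the start and the SOX motif ACAATG at 62 to 67 bases, with 1 base between them, so that both form a match to the joined motif. In Zfp42 it was part of a full octamer 179 to 186 bases before the start, and a KLF motif lay at 68 to 75 bases. Of 32851 promoter windows of the same length, 1.60% held the octamer, 4.12% its core, 10.7% ACAATG and 3.20% the KLF motif. The joined motif was found in 2 windows, which overlap and hold the same Nanog site. It was added after the Nanog sequence had been read, so its match there was fixed in advance and does not measure how rare it is. Of the other members with an entry, Sox15 held the KLF motif and Zfp57 held ACAAAG (16.5% of windows) before its outermost start, while Tcl1 and Manba held none of these letters. A match is a description of the letters and not a measured binding site. For 6 of the 8 genes the promoter table held an entry, and Dppa3 and Fbxo15 were not matched.

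Nanog and Zfp42 had lower signals on both arrays without LIF than on either array with LIF. For Nanog the signals with LIF were 10137 (array 1) and 14229 (array 2), in MAS5 units on a linear scale, and those without LIF were 3553 (array 1) and 5725 (array 2). The lowest array with LIF was 1.77 times the highest without LIF. The mean signal was 12183 ± 2893 with LIF and 4639 ± 1536 without LIF (SD, n = 2). The log2 change, here and below the difference of mean log2 signals, was -1.41 (95% interval -2.06 to -0.76), or 37.6% of the level with LIF. In limma's fit over all genes the adjusted p was 0.119, so the change did not pass the threshold of 0.05.

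Zfp42 had signals of 21638 and 26293 under LIF against 7471 and 11274.5 in its absence, again with no overlap between the groups. Its mean was 23966 ± 3292 with LIF and 9373 ± 2689 without LIF (SD, n = 2). The log2 change was -1.38 (95% interval -1.93 to -0.82; limma adjusted p = 0.0843), or 38.5% of the level with LIF. The difference between the log2 changes of Nanog and Zfp42, measured as the shift of Nanog relative to Zfp42 on each array, was -0.04 (exact permutation p = 1). With 2 arrays against 2 this p cannot be below 0.333, so it does not show that both genes changed alike.

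Sox15, the third transcription factor among the members, had signals of 318 and 444 under LIF against 167 and 172 in its absence. The arrays without LIF lay close together and both below those with LIF. The means were 381 ± 89.3 and 169.6 ± 3.68 (SD, n = 2), and the log2 change was -1.15 (95% interval -1.85 to -0.45, limma adjusted p = 0.209). In the numbered pairs Sox15 had log2 changes of -0.93 and -1.37, and unlike the other 7 genes its difference was more negative in the pair numbered 2.

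**Figure D1:**
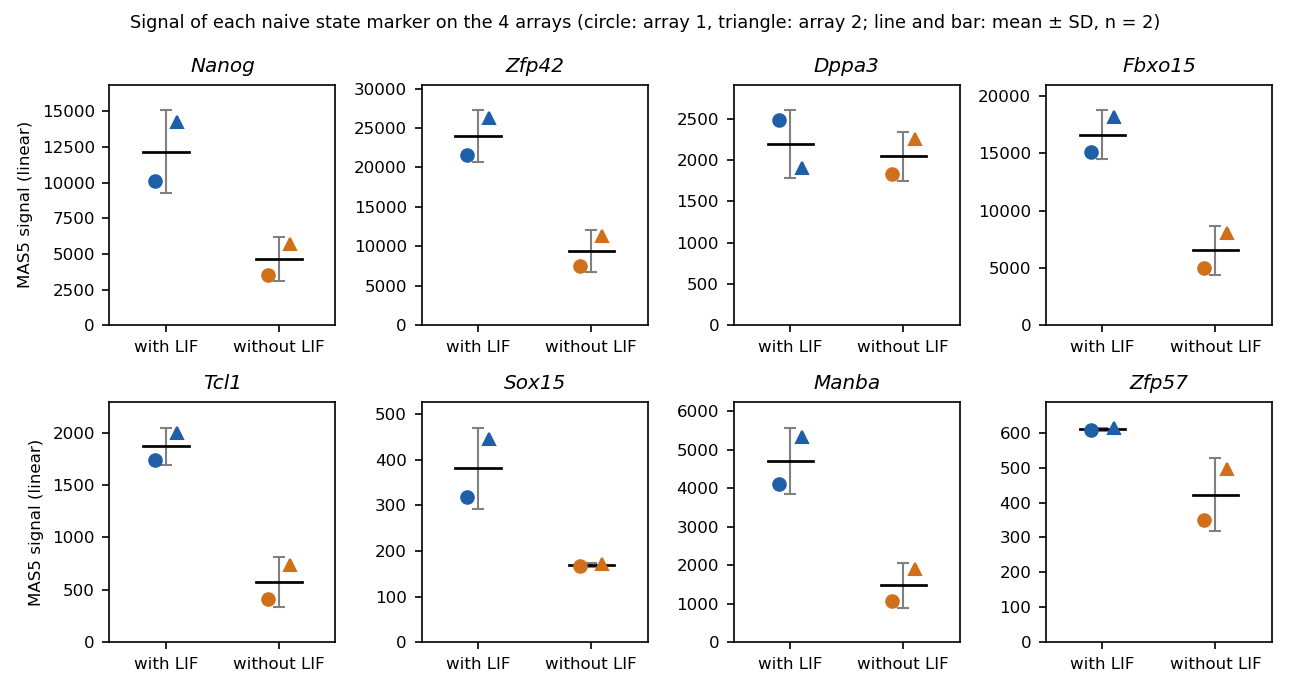
MAS5 signal on a linear scale (y axis, from 0, a scale of its own for each gene) of the 8 naive state markers on the 4 arrays; circles are the arrays numbered 1, triangles those numbered 2, and the black line and grey bar are the mean ± SD (n = 2). In 7 of the 8 panels both points without LIF lie below both points with LIF, and in the panel of Dppa3 the groups overlap.

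Fbxo15, an F-box protein and known target of the core pluripotency factors, followed Zfp42 closely. It had signals of 15146 and 18136 under LIF against 5014 and 8052 in its absence. The means were 16641 ± 2115 and 6533 ± 2149 (SD, n = 2), and the log2 change was -1.38 (95% interval -1.97 to -0.79, limma adjusted p = 0.0977). On no array did the log2 difference between Fbxo15 and Zfp42 depart from its own mean over the 4 arrays by more than 0.05, against 0.12 for Nanog and Zfp42 and 0.97 for Dppa3 and Zfp42.

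Tcl1 and Manba had the most negative log2 changes of the 8. Tcl1, the AKT coactivator, had signals of 1742 and 1995 under LIF against 409 and 742 in its absence. Its means were 1869 ± 179 and 575.5 ± 235 (SD, n = 2). The log2 change of Tcl1 was -1.76 (95% interval -2.47 to -1.05, limma adjusted p = 0.0843), or 29.6% of the level with LIF. Manba, a lysosomal enzyme that removes terminal mannose from glycans, had signals of 4104 and 5328 under LIF against 1068 and 1897 in its absence. Its means were 4716 ± 866 and 1482 ± 586 (SD, n = 2), and its log2 change was -1.72 (95% interval -2.42 to -1.02, limma adjusted p = 0.0843). Neither gene passed, and for each of them both arrays without LIF lay below both with LIF.

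Zfp57 and Dppa3, which both act on DNA methylation, had the log2 changes closest to 0. Zfp57, a KRAB zinc finger protein of imprinting control regions, had signals of 606 and 613 under LIF against 349 and 496 in its absence. Its means were 609 ± 4.88 and 422 ± 103 (SD, n = 2), and its log2 change was -0.55 (95% interval -1.16 to 0.06, limma adjusted p = 0.499). The groups of Zfp57 did not overlap, but its interval includes 0. Dppa3, also called Stella, had signals of 2482 and 1902 under LIF against 1831 and 2256 in its absence. These values overlap, with means of 2192 ± 410 and 2044 ± 301 (SD, n = 2). The log2 change of Dppa3 was -0.10 (limma adjusted p = 0.907), and its 95% interval, -0.60 to 0.41, leaves room for a fall to 65.8% and for a rise to 133% of the level with LIF. The intervals of Nanog, Zfp42, Fbxo15, Tcl1 and Manba lie wholly below that of Dppa3. Relative to Zfp42 on the same array, Dppa3 was higher without LIF by 1.28 on the log2 scale, with no overlap (exact permutation p = 0.333, two-sided, the smallest that 2 arrays against 2 can give).

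In the order of log2 change the genes stood as Tcl1 (-1.76), Manba (-1.72), Nanog (-1.41), Fbxo15 (-1.38), Zfp42 (-1.38), Sox15 (-1.15), Zfp57 (-0.55) and Dppa3 (-0.10). The gaps between neighbours were 0.04, 0.30, 0.03, 0.005, 0.23, 0.60 and 0.46, against standard errors of 0.21 to 0.30 for single genes. The 95% intervals of every pair of neighbours in this order overlap. Such overlap does not test a difference between genes read on the same arrays, so the order is a description. In the pair numbered 2, Tcl1 and Manba, Fbxo15 and Zfp42, and Zfp42 and Sox15 stood the other way round. Nanog and Fbxo15 did so in the pair numbered 1. Probe sets differ in how brightly they bind, so the signals give no order of transcript levels between genes.

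Over the whole set, limma called 0 of the 8 members at the threshold of 0.05 after adjustment over all genes, where 0.0969% of all genes tested were called lower and 0.0485% higher. At an unadjusted p of 0.05 or less, 6 of the 8 were lower, against 3.73% of all genes. Both arrays without LIF lay below both arrays with LIF for 7 of the 8, against 15.2% of all genes, and above them for 0 of the 8, against 27.3%. A log2 change of -1 or below was seen for 6 of the 8, against 2.73% of all genes. Such a change together with groups apart was also seen for 6 of the 8, against 2.12% of all genes. The median log2 change of the 8 was -1.38, and that of all genes tested was 0.09. These counts are a description, since the genes were chosen with earlier results of these data known. Without array 1 of the cultures without LIF, Nanog, Zfp42, Fbxo15, Tcl1 and Manba had log2 changes of -1.07, -1.08, -1.04, -1.33 and -1.30. Without array 2 of those cultures the changes were -1.76, -1.68, -1.73, -2.19 and -2.13. When array 1 or array 2 of the cultures with LIF was omitted, Nanog had log2 changes of -1.66 and -1.17. Such a fit leaves 1 array in a group, which is assumed to vary like those of the other group.

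**Figure D2:**
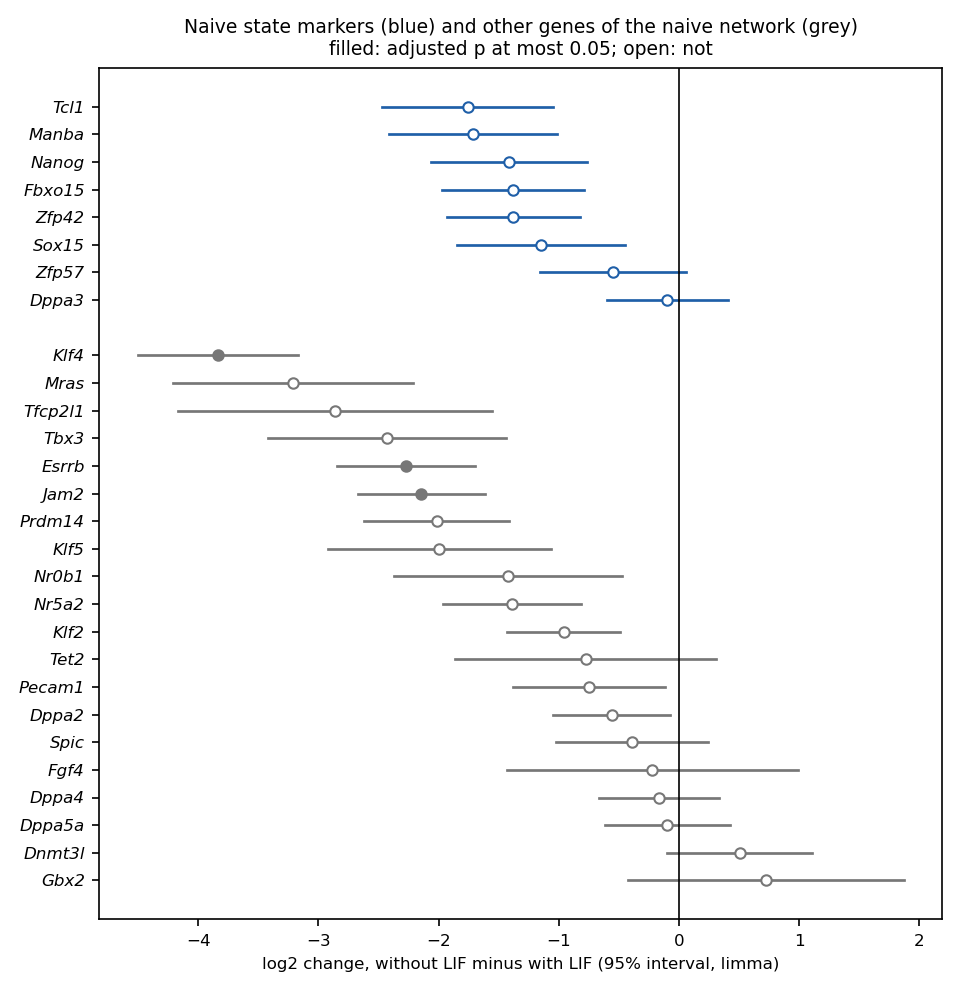
Log2 change without LIF minus with LIF (x axis) with the 95% interval of limma's moderated standard error for the 8 naive state markers (blue) and 20 other genes of the naive network (grey); filled points have an adjusted p of at most 0.05. All 8 blue points are open and lie between -1.76 and -0.10, and the filled grey points are Klf4, Esrrb and Jam2.

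Nanog, Fbxo15 and Zfp42 had bright probe sets, where changes of other genes were small. Of 1108 genes tested with a mean log2 signal above 12, a limit set after the values had been seen, 14 had a log2 change of -1 or below. The most negative of these were Tdgf1, a co-receptor for NODAL (-1.48, limma adjusted p = 0.131), Nanog, Fbxo15 and Zfp42. The SD of log2 changes was 0.28 over these 1108 genes and 0.64 over all genes tested. Among all genes tested, 175 had a more negative log2 change than Nanog, 192 than Zfp42, 93 than Tcl1 and 96 than Manba, while 1009 did so for Zfp57 and 4477 for Dppa3.

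**Figure D3:**
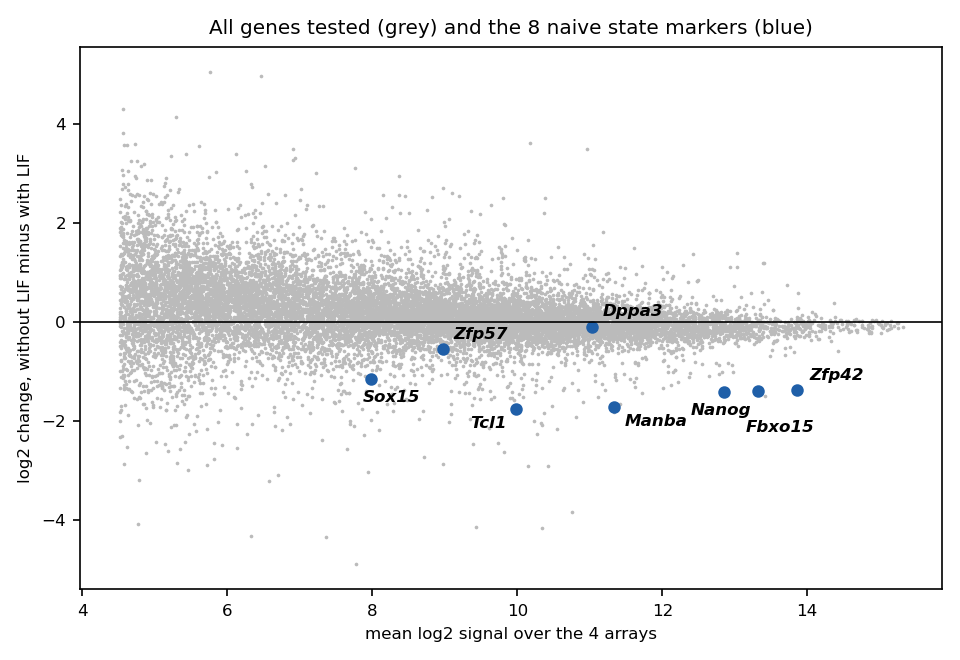
Mean log2 signal over the 4 arrays (x axis) against the log2 change without LIF minus with LIF (y axis) for the 14445 genes tested (grey) and the 8 naive state markers (blue). Zfp42, Fbxo15 and Nanog lie below nearly all genes of like signal, and Dppa3 lies within the bulk of genes.

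The arrays numbered 2 read higher than those numbered 1 for most members. This was so for 7 of the 8 genes with LIF and for 8 of the 8 without LIF. The share over all genes was not computed, so the count does not set the members apart from other genes. Over all probe sets other than controls, the median signal was 69.9 (array 1) and 59.6 (array 2) with LIF. Without LIF it was 95.5 (array 1) and 65.5 (array 2). The ratio of array 2 to array 1 was 1.40 with LIF and 1.61 without LIF for Nanog, 1.22 and 1.51 for Zfp42, and 1.15 and 1.81 for Tcl1. For Dppa3 it was 0.766 and 1.23, so its log2 difference was -0.44 in the pair numbered 1 and 0.25 in the pair numbered 2. For the other 7 genes both pairs pointed down. Nanog had 35.1% of the level with LIF in the pair numbered 1 and 40.2% in the pair numbered 2. Zfp42 had 34.5% and 42.9%, Fbxo15 33.1% and 44.4%, Tcl1 23.5% and 37.2%, Manba 26.0% and 35.6%, and Zfp57 57.6% and 80.9%. The median log2 change of the 8 was -1.52 and -1.27 in the pairs, and that of all genes 0.11 and 0.06.

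**Figure D4:**
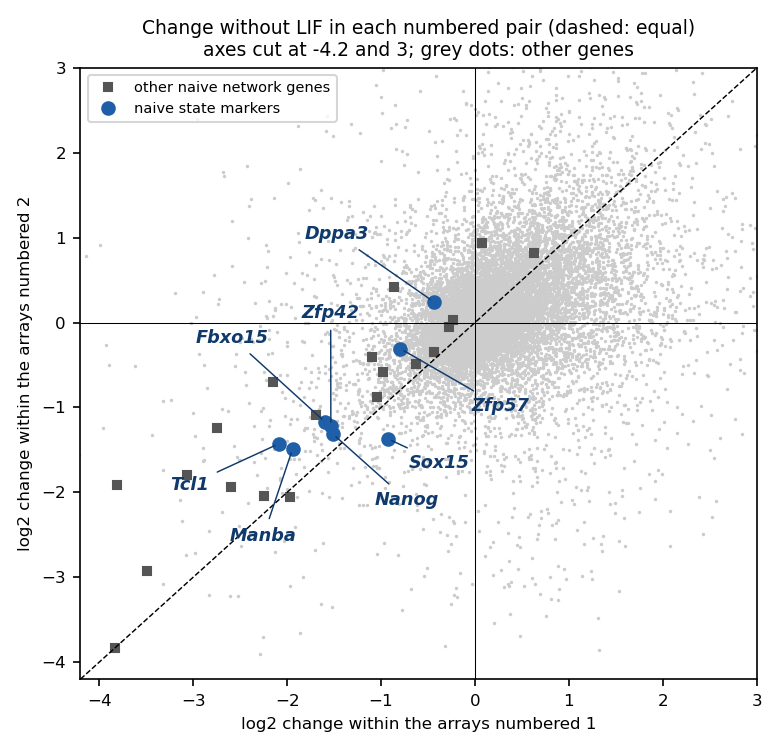
Log2 change without LIF minus with LIF in the pair numbered 1 (x axis) and the pair numbered 2 (y axis), 1 array a group, axes limited to -4.2 to 3, for the naive state markers (blue circles), other naive network genes (grey squares) and the remaining genes tested (grey dots); on the dashed line both are equal. Of the 8 markers 7 lie below 0 on both axes, and Dppa3 lies at -0.44 and 0.25.

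Array controls and some markers of other cells also moved with the numbers. The 18S ribosomal RNA control read 451 to 462 on the arrays numbered 1 and 2990.4 to 5150.4 on those numbered 2, and the 3' over 5' signal ratio of Actb was 1.32 to 1.44 and 1.77 to 1.83. Of 14 primitive endoderm markers tested, limma called 0, and 1 had an unadjusted p of at most 0.05, against 10.9% of all genes. Of the 14, 1 marker, the plasma protein gene Ttr, had groups apart on the higher side (log2 change 5.06, limma adjusted p = 0.241), against 27.3% of all genes. Ttr had signals of 2.8 and 31.4 under LIF against 98.5 and 995.7 in its absence. The value of 2.8 is near the floor, and in each group array 2 read higher. The summed signal of the 14 was 7061 and 16997 with LIF and 8665 and 29739 without LIF. The sum over 10 trophoblast markers was 3642 to 4940 with LIF and 2159 to 3619 without LIF. Most of the sum with LIF was Tfap2c, with signals of 2667 and 3785 under LIF against 707 and 713 in its absence. Cdx2, Elf5 and Gata3 of this list lay below the filter. Of the 7 tested 1 was called lower, Tfap2c (log2 change -2.16, limma adjusted p = 0.0273), against 0.0969% of all genes. In the fit that omitted array 2 of the cultures with LIF its log2 change was -1.91 and it did not pass. The keratins Krt18 (1.42, limma adjusted p = 0.316) and Krt8 (0.95, 0.495) and the T-box factor Eomes (0.91, 0.335) were higher on both arrays without LIF and did not pass. Neuroectoderm markers (7 with a probe set, 6 of them tested) summed to 2494 (array 1) and 1466 (array 2) with LIF. Without LIF they summed to 3409 (array 1) and 1657 (array 2), so in both groups the array numbered 1 read higher. In that list Tubb3 was lower on both arrays without LIF and Sox1 was higher. Primitive streak and mesoderm markers (7, with 5 tested) summed to 358 to 388 and 516 to 608. Fibroblast markers (8, with 7 tested) summed to 4706 to 5434 and 4835 to 5745, mostly from Fn1 (4383 to 4802 and 3936 to 5272). In that list Dcn was higher on both arrays without LIF. The 2-cell-like markers (3, all tested) summed to 207 to 385 and 224 to 234. The part of these other cell types in the values of the 8 genes was not tested. The 6 ES cell markers (Pou5f1, Sox2, Nanog, Zfp42, Esrrb and Klf4) summed to 63839 to 76260 with LIF and 29947 to 40179 without LIF. Their median log2 change was -1.395, and 5 had groups apart on the lower side, against 15.2% of all genes. Of the 6, limma called 2 lower (Klf4 and Esrrb), against 0.0969% of all genes. Pou5f1, which encodes Oct4, had signals of 9035 and 8246 under LIF against 7212 and 10632 in its absence. Sox2 had signals of 14933 and 16847 under LIF against 10883 and 11298 in its absence.

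By the distance between log2 signals on the 4 arrays, each gene centred on its own mean, the genes most like Nanog among 13506 were Klf15 (0.08), Fam25c (0.09), Fbxo15 (0.17), Zfp42 (0.17) and Tdgf1 (0.17). Those most like Zfp42 were Fbxo15 (0.07), Klf15 (0.10), Fbxo6 (0.10), Arid5b (0.14) and Stat3 (0.15). Klf15, a KLF family factor, had signals of 293 and 383 under LIF against 99.5 and 157 in its absence. Stat3, the transcription factor downstream of the LIF receptor, had signals of 1035 and 1267 under LIF against 317.5 and 498.5 in its absence on its brightest probe set (log2 change -1.53, limma adjusted p = 0.0999). Among the members, Manba and Tcl1 were closest to each other (0.14), and Zfp57 was closer to Dppa3 (0.55) than to Nanog (0.93). Dppa3 lay 1.48 from Nanog. With 4 arrays in 2 groups, a gene with a like difference between the groups is close by construction.

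Other genes of the naive network were also lower without LIF, some with more negative log2 changes than any of the 8 members. Of 20 tested, 3 fell and 0 rose, against 0.0969% and 0.0485% of all genes: Klf4, a KLF factor induced by LIF, with a log2 change of -3.84 (adjusted p = 0.0101), the nuclear receptor Esrrb with -2.27 (0.0315) and the adhesion molecule Jam2 with -2.14 (0.0273). Klf4 had signals of 5333 and 7999 under LIF against 373 and 559 in its absence. In the fit that omitted array 2 of the cultures with LIF, Klf4 passed (-3.54, adjusted p = 0.0227) and Esrrb (-2.30, 0.147) and Jam2 (-2.07, 0.157) did not. The median of the 20 was -1.17, and 14 of them had groups apart on the lower side, against 15.2% of all genes. Prdm14, a PR domain regulator of pluripotency and the germ line (-2.02, adjusted p = 0.0544), and Mras, a RAS-type GTPase (-3.21, adjusted p = 0.0544), did not pass. At the other end of the list, Dppa5a (-0.10), Dppa4 (-0.16), Dnmt3l (0.51) and Gbx2 (0.72) had intervals that include 0, as did Zfp57 and Dppa3 among the members. Tet2, Spic and Fgf4 of the list also had such intervals.

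Of 8 core genes tested limma called 0 (3 had an unadjusted p of at most 0.05, against 10.9% of all genes), with a median of -0.12. Pou5f1 had a log2 change of 0.02 (95% interval -0.50 to 0.54) and Sox2 of -0.52 (limma adjusted p = 0.311), while Tdgf1 read -1.48 and the RNA-binding protein Lin28a 0.87 (0.124). Of 14 formative and primed epiblast genes 2 rose and 0 fell, against 0.0485% and 0.0969% of all genes, with a median of 1.29. The kinase Pim2 rose by 3.50 and the POU factor Pou3f1 by 3.61 (adjusted p = 0.0261 for each), and the DNA methyltransferase Dnmt3b read 1.20 (0.0647). The ETS factor Etv4 had groups apart the other way, with a log2 change of -2.19 that did not pass (limma adjusted p = 0.165).

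Partners of Zfp57 and Dppa3 in DNA methylation had a median near that of all genes. Of 11 tested limma called 0 (1 had an unadjusted p of at most 0.05, against 10.9% of all genes), with a median log2 change of 0.08. Trim28, the corepressor that Zfp57 binds, had signals of 17981 and 20523 under LIF against 12402 and 18031 in its absence (log2 change -0.36, limma adjusted p = 0.600), with overlap. Uhrf1 and Dnmt1, which maintain DNA methylation, had mean signals of 5474 and 3069.8 with LIF and 5765 and 3071.8 without LIF. Tet1, which oxidises methylcytosine, had signals of 6692 and 8582 under LIF against 2836 and 4920 in its absence (log2 change -1.02, limma adjusted p = 0.245), with the groups apart. Tet3 lay below the filter on dim genes.

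Genes of the same pathway or family as Fbxo15, Tcl1, Manba and Sox15 were set beside them, and limma called 0 of 29. At an unadjusted p of 0.05 or less there were 0 of 3 ubiquitin ligase partners, 1 of 8 AKT pathway genes, 2 of 10 glycosidases and 5 of 8 Sox factors, against 10.9% of all genes in either direction. The ubiquitin ligase partners Cul1, Skp1 and Rbx1 had log2 changes of 0.11, -0.16 and -0.19, against -1.38 for Fbxo15. Their intervals were -0.281 to 0.505, -0.811 to 0.481 and -1.584 to 1.196. Rbx1 was dim, with signals of 57.2 and 37.8 under LIF against 45.4 and 36.4 in its absence. The interval of Rbx1 includes a fall as large as that of Fbxo15, so its value does not show that Rbx1 was unchanged. Of 8 genes of the AKT pathway around Tcl1 the median was 0.12, from -0.54 for the kinase Pdpk1 to 0.62 for the transcription factor Foxo1. Of 10 lysosomal glycosidases beside Manba the median was 0.12. The beta-galactosidase Glb1 had signals of 1562 and 1793 under LIF against 798 and 1089.5 in its absence (-0.84, limma adjusted p = 0.224), and the alpha-mannosidase Man2b2 had signals of 50.7 and 40.1 under LIF against 156 and 164 in its absence (1.83, limma adjusted p = 0.161). Both had groups apart, in opposite directions. Of 8 Sox factors beside Sox15 the median was 0.76, and Sox12 (0.90), Sox3 (1.38) and Sox4 (0.83) were higher on both arrays without LIF while Sox15 and Sox2 were lower.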

How the data were processed

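The authors deposited linear signal intensities made with MAS5, per the submitters' processing notes. The sources used here do not give its version or a genome build. The trimmed means of the 4 arrays, computed here, were 499.7 to 501.4. Of 45101 probe sets, 34945 had 1 gene symbol. The 1 value at 0 was raised to the smallest positive value, log2 was taken, and each gene was represented by its brightest probe set by mean log2 signal. Genes above the 30th percentile of probe set means (log2 signal 4.51, signal 22.9) entered a two-sided limma test (version 3.58.1, R 4.3.3; mean-variance trend, LIF as the single factor, residual degrees of freedom 2), with Benjamini-Hochberg adjustment over all 14445 genes. Intervals are 95% intervals from limma's moderated standard error. The number of arrays limits the precision. The members and lists were chosen with earlier results of these data known. The text names all members, up to 4 genes of a list by smallest unadjusted p, called genes of the lists, the 5 genes most like Nanog and like Zfp42, and Pou5f1 and Sox2. Genes outside that rule (among them Etv4, Trim28, Uhrf1, Dnmt1, Dppa5a, Dppa4, Dnmt3l and Gbx2) were named for their role or place in a list after their values were seen. Promoters came from RefSeq (GRCm38.p6). Nanog and Dppa3 are known to have processed pseudogenes, and probe sequences were not used here to test cross-hybridization. Alternatives were other filters, a pseudocount, normalizations, variance models, probe set choices, a block for the replicate number, omission of each array and a threshold of 0.1. The scripts were tested on simulated data. Plots used Python 3.11.15 and matplotlib 3.10.9.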

Additional observations from a re-analysis of the deposited data

How the results depend on the processing

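In the alternatives run, the log2 changes of Nanog, Zfp42, Fbxo15, Tcl1, Sox15, Manba and Zfp57 stayed below 0, with ranges of -1.76 to -1.07, -1.68 to -1.08, -1.73 to -1.04, -2.19 to -1.33, -1.44 to -0.91, -2.13 to -1.30 and -0.84 to -0.30. Dppa3 was above 0 without the first array of either group (0.095 for LIF, 0.054 for no LIF; -0.288 to 0.095 over the omission of each array) and in the pair numbered 2 (0.25). The cause was not tested.

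The count of 0 members called held under most settings. A common median over all probe sets, dim ones included, called 2 lower (Tcl1 and Manba), where 83 of 14445 genes were lower and 48 higher. The member median was then -1.67 and the median of all genes -0.20. That setting, and the values within numbers, were chosen after seeing the data. At an adjusted p of 0.1 there were 4 members, all lower, where 67 of 14445 genes were lower and 73 higher. The correlation over genes of the deviations of same-numbered arrays from their group means was 0.291, over 2 pairs, which is too few to show that the numbers pair the samples. With the number as a replicate block 6 members were called lower (Nanog, Zfp42, Fbxo15, Tcl1, Sox15 and Manba, adjusted p from 1.3e-04 to 0.0221), where 2.62% of all genes were lower and 4.13% higher, and 6 with the block and quantile normalization.

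Counts of all genes called (21) and of other naive network genes (3) were 41 and 5 with a filter at the 50th percentile, 40 and 5 with a pseudocount of 14.3, 10 and 1 with quantile normalization, 131 and 8 with a common median over all probe sets, 52 and 5 with robust eBayes, 12 and 1 with the mean of probe sets, 975 and 15 with the block, 720 and 14 with the block and quantile normalization, and 140 and 7 at 0.1. limma without the trend and with every probe set called 0 and 0, with 1589 and 2038 at an unadjusted p of 0.05 or less. The split of calls was 7 higher and 14 lower, against 4 and 14 with a common median over the genes tested, where the median of all genes was -0.05. It was 26 and 26 with robust eBayes, 19 and 22 with a filter at the 50th percentile, 18 and 22 with the pseudocount, 73 and 67 at 0.1, 596 and 379 with the block, 404 and 316 with the block and quantile normalization, 27 and 12 without array 1 with LIF, 178 and 125 without array 1 of the cultures without LIF, and 256 and 240 without their array 2.

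Formative genes called (2) were 6 with a common median over all probe sets, 0 without the trend, 1 with the mean of probe sets, 0 with every probe set, 4 at 0.1, and 10 with the block, with or without quantile normalization. With the block, 2.62% of all genes tested were called lower and 4.13% higher. In that fit 3 of 8 core genes, 2 of 11 methylation partners and 1 of 8 AKT pathway genes were called. So were 2 of 10 glycosidases and 5 of 8 Sox factors. Also called were 4 of 14 primitive endoderm markers (all higher), 3 of 7 trophoblast and 3 of 6 neuroectoderm markers (2 higher and 1 lower in each). With quantile normalization as well, the first 5 counts were 3, 2, 0, 1 and 5, where 316 of 14443 genes were lower and 404 higher.

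Leaving out each array gave 7 to 496 genes, 0 to 5 members, a member median of -1.70 to -1.08, 1 to 14 naive network genes with a median of -1.53 to -0.77, 0 to 2 core genes, 2 to 8 formative genes, 0 to 2 methylation partners, 0 to 1 glycosidase and 0 to 3 Sox factors. With 2 arrays a group, spread is estimated mostly from other genes of like signal.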
